A study of Drosophila melanogaster with 6 samples.

Results

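The genes described here encode the proteasome of Drosophila melanogaster, together with the testis-type copies of some of its subunits. They were chosen by name: a gene belongs to the group if its symbol in the platform annotation begins with Prosalpha, Prosbeta, Rpn or Rpt followed by a digit. A digit followed by T, R or another letter marks a testis-type paralog. The rule found 40 of 11983 measured genes, each with 1 probe set that is assigned to that gene alone. They comprise 12 subunits of the core particle, 7 of the base, 7 of the lid and 14 paralogs. Of the 48 genes in the RefSeq table whose symbols match, 8 are not analysed here as members (Prosalpha1, Prosalpha1R, Prosbeta1, Rpn9, Rpn10, Rpt1, Rpt6 and Rpt6R).

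RNA came from whole male larvae in the third instar. The mutant group carried the genotype yw/Yy+;msl21/msl21, homozygous for msl21, an EMS-induced allele of msl2. The control group carried yw/Yy+;msl21/+ and was thus heterozygous for the same allele, although its titles call it wild type. Each group has 3 arrays, 1 for each independent RNA preparation. A preparation pooled at least 50 larvae, and p-values therefore measure the spread between pools. The series asks whether expression from the male X chromosome, and from the autosomes, depends on MSL2, a subunit of the complex that raises expression from the single X chromosome of males.

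The proteasome degrades proteins that carry ubiquitin chains. Its core particle is a barrel in which alpha subunits form the outer rings and control entry, while beta subunits form the inner rings and carry the protease sites. A regulatory particle caps the barrel: its base contains the Rpt ATPases, which unfold substrates, and its lid contains the subunit that removes ubiquitin. Fly testes express additional copies of many subunit genes, which are active in the male germ line and are known from spermatogenesis.

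A pair of patterns stood out: the 26 canonical subunits (core, base and lid) were highest in 1 mutant pool, and the paralogs were low in the other mutant pools. Values are log2 expression values from RMA, and a deviation is the log2 value of a gene in an array minus its mean over the 3 controls. In mutant replicate 2 every one of the 26 canonical subunits had its highest value of the 6 arrays, while 29.2% of all genes were highest in that array, which was singled out after the values were seen. The deviations there ran from 0.34 to 0.96, with a median of 0.67. In mutant replicates 1 and 3 the medians were -0.17 and -0.01. The spread of the canonical subunits within the mutants was therefore wide (median SD 0.463, n = 3, against 0.284 for all genes), and within the controls it was narrow (median SD 0.118 against 0.148).

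**Figure D1:**
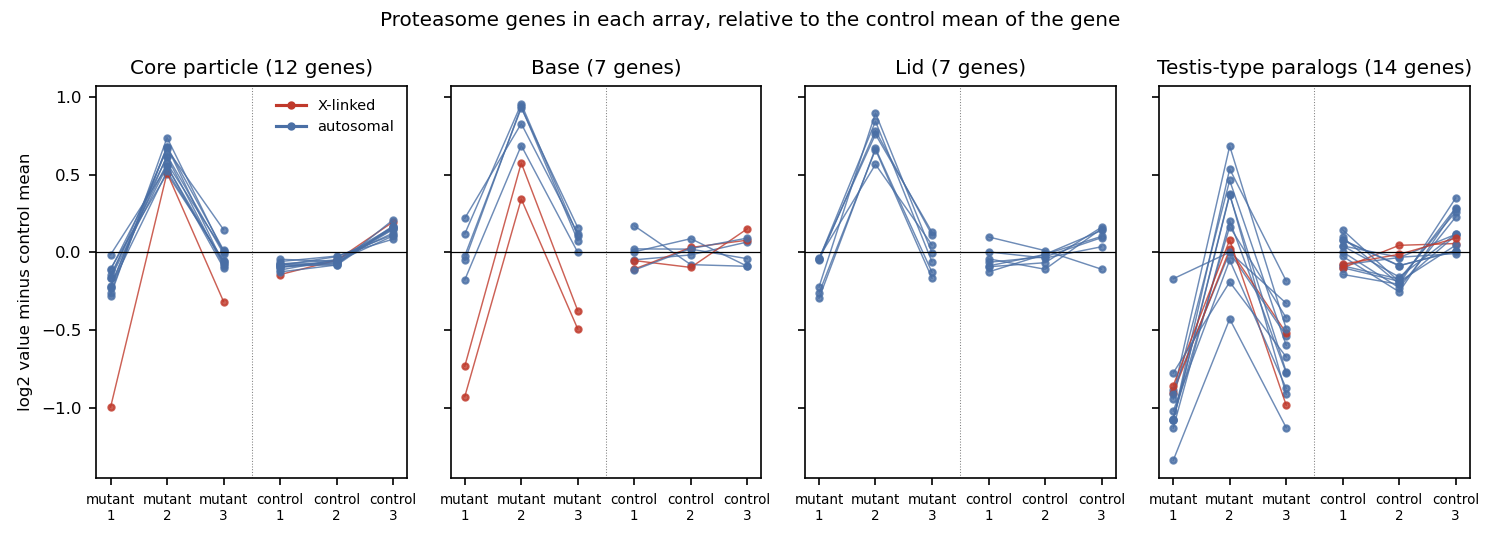
Each point is 1 gene in 1 array, as its log2 value minus the mean of the 3 control arrays (vertical axis), for the 3 mutant and 3 control arrays (horizontal axis). Lines only join the points of a gene, red for X-linked and blue for autosomal genes. All 26 canonical subunits peak in mutant replicate 2, and the paralogs are low in mutant replicates 1 and 3.

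Other measures in these arrays also differed between the mutant pools, and not only in mutant replicate 2. The mean difference between 3' and 5' control probe sets of the same transcript (3 pairs, for actin, eIF-4a and GAPDH), a sign of RNA quality, was 0.68 in mutant replicate 2, the lowest of the arrays, and 1.69 and 1.29 in mutant replicates 1 and 3. The controls had 1.35, 1.22 and 1.32. The 8 salivary glue genes, which mark the end of larval life, had median deviations of -6.16, 0.75 and 0.23 in mutant replicates 1, 2 and 3 and between -0.27 and 0.37 in the controls, so pools differed in this marker of age too. The part of either measure in the proteasome values was not tested.

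Over all 6 arrays no proteasome gene passed the test for a difference between the genotypes. In limma's fit over all genes, with an adjusted p under 0.05 (Benjamini-Hochberg) as threshold, 0 of the 40 were higher and 0 lower, where 0% of all genes were called higher and 0.0167% lower. At an unadjusted p under 0.05, 0 members were higher, against 3.86% of all genes. At the same level 3 members were lower, against 4.66% of all genes, and all of them were paralogs of regulatory subunits (Rpn12R, Rpt3R and Rpt4R). With limma's array weights 9 of the 14 paralogs were called lower and 0 canonical subunits were called, against 8.45% of all genes called lower; in that fit mutant replicates 1, 2 and 3 had weights of 0.415, 0.175 and 3.15.

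Among the core subunits, the 11 autosomal genes lay close together in every array. Their deviations ran from -0.28 to -0.02 in mutant replicate 1, from 0.51 to 0.74 in mutant replicate 2 and from -0.10 to 0.15 in mutant replicate 3. The controls shared small differences too: all 12 core subunits were above their control mean in control replicate 3 and below it in control replicates 1 and 2. The median difference of the 12 core genes (mutant minus control) was 0.13, beside 0.00 for all genes, and 11 of the 12 were above 0. Without mutant replicate 2 the median was -0.11 and 0 of the 12 were above 0, so the sign of the core median rests on that array.

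Prosbeta5, which carries the chymotrypsin-like protease site, had log2 values of 11.15, 11.97 and 11.46 in mutant replicates 1, 2 and 3 and of 11.22, 11.25 and 11.47 in the controls. Only mutant replicate 2 lay above the controls, and the groups overlapped. The difference was 0.21 (SE 0.23, limma adjusted p = 0.80). Prosbeta6, a beta subunit without a protease site of its own, had 10.87, 11.44 and 10.79 in the mutants and 10.81, 10.82 and 11.04 in the controls. It too was high only in mutant replicate 2, with a difference of 0.15 (SE 0.20, limma adjusted p = 0.86). Without mutant replicate 2 these differences were -0.01 and -0.06. The other autosomal core genes (Prosalpha2, Prosalpha3, Prosalpha5, Prosalpha6, Prosalpha7, Prosbeta2, Prosbeta3, Prosbeta4 and Prosbeta7) had differences between 0.08 and 0.16, all with overlapping groups. Prosbeta2, with the trypsin-like site, was among them at 0.13.

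The 5 autosomal base genes had larger differences, between 0.17 and 0.39, and their median deviation in mutant replicate 2 was 0.93. Rpn1, a scaffold protein on which shuttle proteins with ubiquitylated cargo dock, had log2 values of 9.46, 10.30 and 9.45 in the mutants and 9.37, 9.36 and 9.30 in the controls. It was the canonical subunit whose groups did not overlap, with all mutant values above all control values, an arrangement found in 6.59% of all genes. Its difference was 0.39 (SE 0.25, limma adjusted p = 0.65), and 0.11 without mutant replicate 2. Rpn2, the other large scaffold protein of the base, had 10.14, 10.75 and 10.04 in the mutants and 10.09, 9.84 and 9.83 in the controls. Mutant replicate 3 lay below control replicate 1, so the groups overlapped (difference 0.39, SE 0.22, limma adjusted p = 0.63), and the difference was 0.17 without mutant replicate 2.

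Rpn13, a ubiquitin receptor, had log2 values of 10.23, 11.18 and 10.41 in the mutants and 10.26, 10.34 and 10.16 in the controls. Mutant replicates 2 and 3 were above the controls and mutant replicate 1 was among them. The difference was 0.35 (SE 0.26, limma adjusted p = 0.69), and 0.07 without mutant replicate 2. The autosomal ATPase genes Rpt2 and Rpt5 had differences of 0.17 and 0.32 (limma adjusted p = 0.86 and 0.74). In the fit lacking mutant replicate 2 they were at -0.09 and 0.01.

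All 7 lid genes are autosomal and had differences above 0, between 0.08 for Rpn5 and 0.28 for Rpn12, with a median of 0.22. Rpn11, the enzyme that cuts ubiquitin chains from substrates, had log2 values of 10.64, 11.48 and 10.80 in the mutants and 10.60, 10.68 and 10.80 in the controls. Rpn8, which pairs with Rpn11, had 9.74, 10.34 and 9.82 in the mutants and 9.88, 9.79 and 9.67 in the controls. In both genes mutant replicate 2 stood alone, and the other mutant arrays lay within or at the edge of the control range. The differences were 0.28 (SE 0.23, limma adjusted p = 0.73) for Rpn11 and 0.19 (SE 0.19, limma adjusted p = 0.78) for Rpn8. The structural subunit Rpn12 had 10.21, 11.01 and 10.38 in the mutants and 10.16, 10.19 and 10.41 in the controls, with a difference of 0.28 (SE 0.23, limma adjusted p = 0.72). Rpn3, Rpn5, Rpn6 and Rpn7, structural subunits of the lid, had 0.22, 0.08, 0.25 and 0.08. Without mutant replicate 2 the lid genes lay between -0.22 and 0.04.

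**Figure D2:**
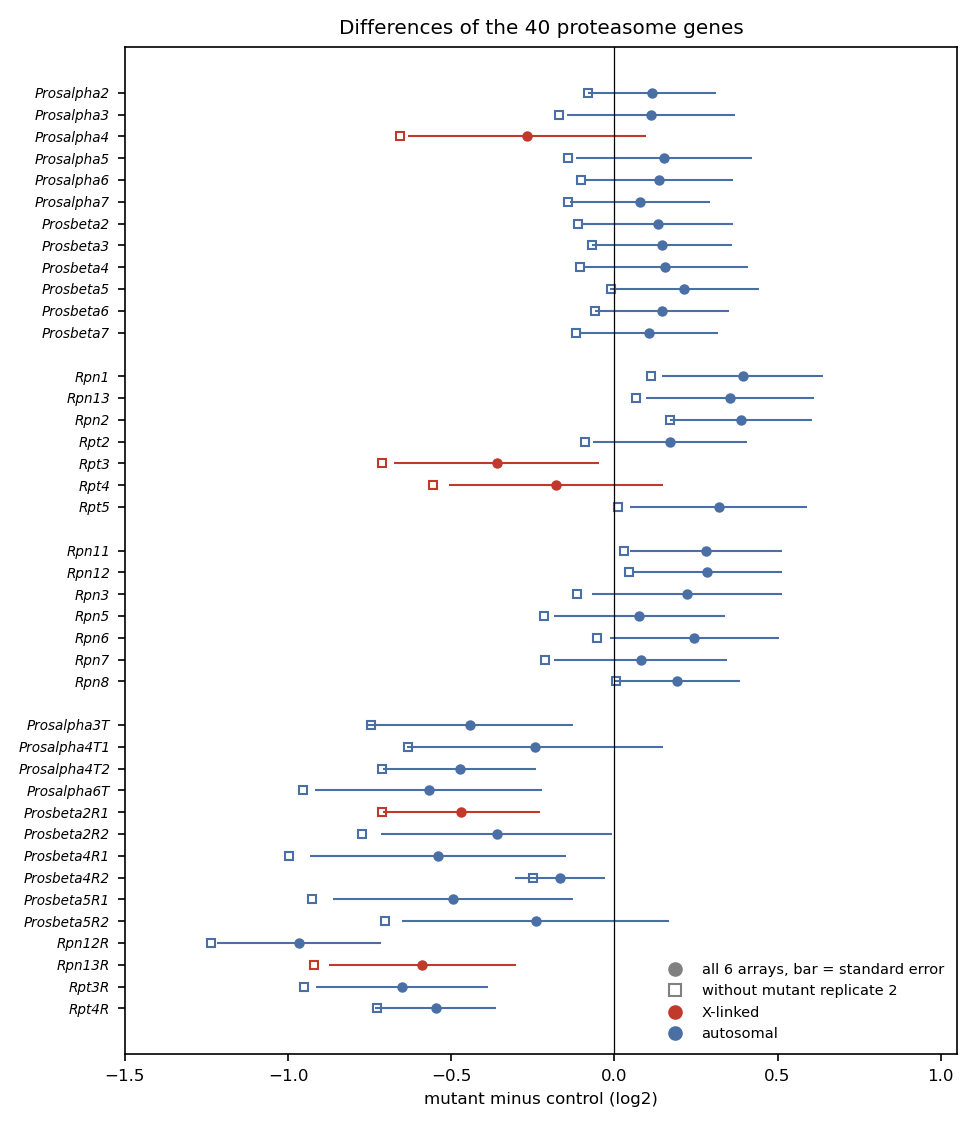
Difference between mutant and control means (log2, horizontal axis) for the 40 genes, in the order core, base, lid and paralogs. Filled points with bars are the limma estimates over 6 arrays and their standard errors, and open squares the estimates without mutant replicate 2. Over 6 arrays the 23 autosomal canonical subunits lie above 0, and the 3 X-linked ones and the 14 paralogs below 0.

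The 3 X-linked canonical subunits departed from the autosomal ones. They are Prosalpha4 (gene ID 32584), an alpha-ring subunit, and Rpt3 (32047) and Rpt4 (31567), ATPases of the base. All had differences below 0, whereas the 23 autosomal canonical subunits were all above 0 (0.08 to 0.39). For comparison, 69.4% of all X-linked genes and 45.7% of all autosomal genes had differences below 0. Among genes with a mean above the median of all genes, where all canonical subunits lie, the shares were 82.9% and 44.6%.

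Prosalpha4 had log2 values of 8.68, 10.19 and 9.36 in the mutants and 9.54, 9.63 and 9.88 in the controls. Rpt3 had 9.52, 10.79 and 9.96 in the mutants and 10.34, 10.48 and 10.53 in the controls. Rpt4 had 9.33, 10.64 and 9.69 in the mutants and 10.01, 9.97 and 10.21 in the controls. In each of the 3 genes, mutant replicates 1 and 3 lay below all controls and mutant replicate 2 above them. The differences were -0.27 (SE 0.36, limma adjusted p = 0.86) for Prosalpha4, -0.36 (SE 0.31, limma adjusted p = 0.75) for Rpt3 and -0.18 (SE 0.33, limma adjusted p = 0.90) for Rpt4. Prosalpha4 and Rpt4 were at 0.10 each without mutant replicate 1, so their sign rests on that array, and Rpt3 was at -0.076. Without mutant replicate 2 the differences were -0.66, -0.71 and -0.56, and Rpt3 passed the threshold (limma adjusted p = 0.047) where Prosalpha4 and Rpt4 did not (0.13 and 0.083). In that fit 13% of all X-linked genes were called lower.

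Since all canonical subunits shared the high values of mutant replicate 2, each X-linked subunit was also read within its own array, as its deviation minus the median deviation of the 23 autosomal subunits; this reading was chosen after the values were seen. Prosalpha4 then had -0.85, -0.17 and -0.32 in mutant replicates 1, 2 and 3 and between -0.07 and 0.08 in the controls. Rpt3 had -0.78, -0.34 and -0.49 in the mutants and between -0.03 and 0.08 in the controls. Rpt4 had -0.59, -0.10 and -0.38 in the mutants and between -0.05 and 0.04 in the controls. On this scale all 3 X-linked subunits were lower in every mutant pool than in any control pool. Such an arrangement was found in 42.3% of 776 X-linked genes and 14.6% of 5170 autosomal genes of the brighter 50% of genes read in the same way, and in 2 of the 23 autosomal subunits (Prosalpha7 and Prosbeta2).

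The median of the 3 X-linked subunits on this scale amounted to -0.44 ± 0.31 among mutants and 0.00 ± 0.04 among controls (SD, n = 3 each). The X-linked genes of the brighter 50%, set against autosomal genes of the same range, had -0.38, -0.23 and -0.30 in mutant replicates 1, 2 and 3. All 3 subunits were below this chromosome value in mutant replicates 1 and 3, and they lay on both sides of it in mutant replicate 2. The SD of the subunits among mutant pools exceeded the gap between the subunits and the chromosome, and that gap was not tested.

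**Figure D3:**
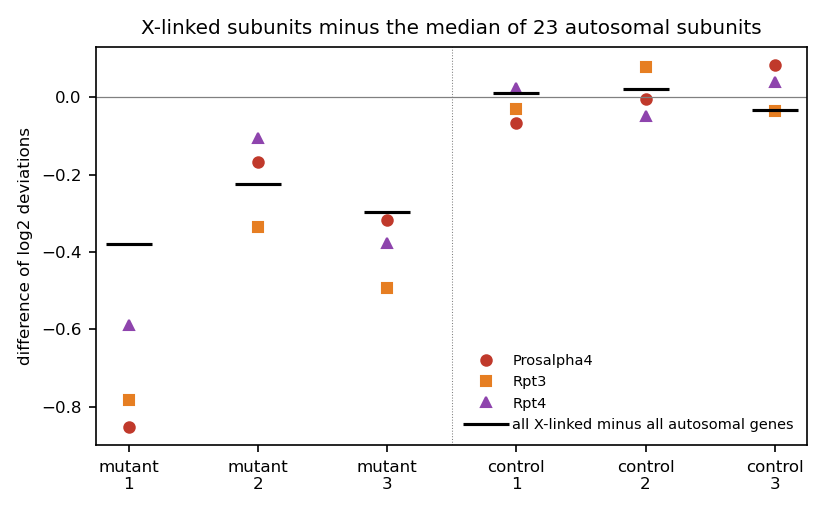
For each array (horizontal axis), the deviation of Prosalpha4, Rpt3 and Rpt4 minus the median deviation of the 23 autosomal canonical subunits (log2, vertical axis). Black bars show the median of all X-linked genes minus that of all autosomal genes, for the brighter 50% of genes. The 3 subunits are below 0 in every mutant array and within 0.1 of 0 in the controls.

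The 14 paralogs had lower values in mutant replicates 1 and 3. In all 14 both of these arrays lay below all 3 controls, an arrangement found in 25.3% of all genes. These arrays were singled out after the values were seen. The median deviations of the paralogs were -0.98, 0.12 and -0.64 in mutant replicates 1, 2 and 3 and between -0.17 and 0.11 in the controls. Over 6 arrays all 14 differences were below 0, from -0.97 to -0.17 with a median of -0.48, beside a median of 0.00 over all genes. Without mutant replicate 1 that median was -0.26 and without mutant replicate 2 it was -0.76. Because whole larvae were measured, fewer germ cells and less RNA per cell cannot be told apart. The signals of the paralogs were weak: 10 of the 14 had a mean below the median of all genes, where RMA compresses differences, and the 26 canonical subunits were all in the brightest 25%.

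Rpn12R (gene ID 2768973), the testis-type copy of the lid subunit Rpn12, had the smallest p of all members. Its log2 values were 6.20, 7.11 and 6.41 in the mutants and 7.58, 7.39 and 7.66 in the controls. All 3 mutant values, that of mutant replicate 2 included, lay below all controls, as in 7.29% of all genes. The difference was -0.97 (SE 0.25, limma adjusted p = 0.39). Its probe set is of a type whose probes can match more than 1 transcript, so its signal may include RNA of a similar gene. Prosbeta5, Prosbeta7, Rpn6 and Rpn13 were measured with probe sets of the same type.

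Rpt4R, a copy of the ATPase Rpt4, had log2 values of 6.74, 7.33 and 6.84 in the mutants and 7.60, 7.43 and 7.53 in the controls. It was the other paralog whose groups did not overlap, with a difference of -0.55 (SE 0.19, limma adjusted p = 0.53). Rpt3R, a copy of the ATPase Rpt3, had 7.30, 8.27 and 7.45 in the mutants and 8.40, 8.24 and 8.33 in the controls, where mutant replicate 2 fell among the controls (difference -0.65, SE 0.26, limma adjusted p = 0.58). Both copies are autosomal, while Rpt3 and Rpt4 themselves are X-linked.

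Rpn13R and Prosbeta2R1 are the X-linked paralogs. Rpn13R, the copy of the ubiquitin receptor, had log2 values of 5.20, 6.14 and 5.08 in the mutants and 5.99, 6.05 and 6.15 in the controls. Prosbeta2R1, a copy of the subunit with the trypsin-like site, had 5.93, 6.85 and 6.31 in the mutants and 6.73, 6.88 and 6.89 in the controls. In both genes mutant replicate 2 lay within the controls and the other mutant arrays below them. The differences were -0.59 (SE 0.29) and -0.47 (SE 0.24), and limma's adjusted p was 0.61 for both. They lie among those of the 12 autosomal paralogs, which ran from -0.97 to -0.17.

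In mutant replicate 2 the 10 copies of alpha and beta subunits had deviations of up to 0.68 (median 0.29), and 5 of them had their highest value of all arrays in that pool. The 4 copies of regulatory subunits ran from -0.43 to 0.08. Prosalpha4T1 and Prosbeta5R2, copies of Prosalpha4 and of the chymotrypsin-like subunit, had 6.42 and 6.25 in mutant replicate 2, above all of their controls (up to 6.14 and 5.91). Their differences over 6 arrays were therefore small, at -0.24 each (limma adjusted p of 0.89 each). Without mutant replicate 1 they were 0.18 and 0.10, so their sign rests on that array. Prosbeta4R2 had log2 values between 3.18 and 3.55 in all arrays, within the dimmest 25% of genes, and its difference of -0.17 is hard to read. Its neighbour Prosbeta4R1, separated from it on 2L by 1 gene of the RefSeq table, had 6.30, 7.75 and 6.46 in the mutants and 7.35, 7.12 and 7.66 in the controls.

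Without mutant replicate 2, 10 of the 14 paralogs were lower (limma adjusted p from 0.0165 to 0.0408), against 7.91% of all genes called lower in that fit and 2.8% called higher. They were Rpn12R, Rpn13R, Rpt3R, Rpt4R, Prosalpha4T2, Prosalpha6T, Prosbeta2R1, Prosbeta2R2, Prosbeta4R1 and Prosbeta5R1, with differences between -1.23 and -0.71. Prosalpha3T, Prosalpha4T1, Prosbeta4R2 and Prosbeta5R2 did not pass, at -0.75, -0.63, -0.25 and -0.70. Leaving out any other single array gave 0 called members. The calls thus concern 2 mutant pools. In mutant replicate 2, 10 of the 14 paralogs were above their control mean.

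**Figure D4:**
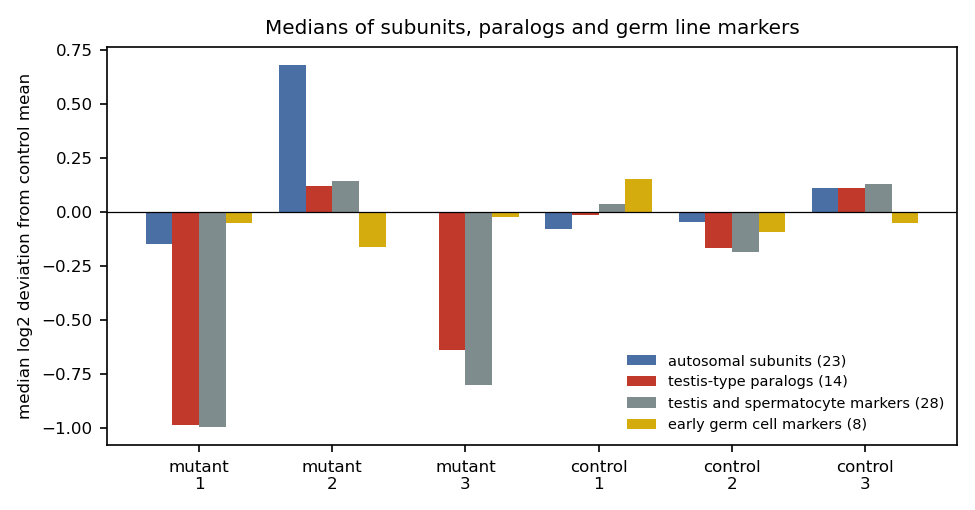
Bars give, for each array, the median deviation from the control mean (log2, vertical axis, no error bars) of the 23 autosomal canonical subunits, the 14 paralogs, 28 testis and spermatocyte markers and 8 early germ cell markers. Paralogs and testis markers have medians between -0.99 and -0.64 in mutant replicates 1 and 3 and of 0.12 and 0.14 in mutant replicate 2.

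Markers of the testis moved with the paralogs. Of 33 listed genes of the testis and spermatocytes 28 were measured, and their median deviations were -0.99, 0.14 and -0.80 in mutant replicates 1, 2 and 3 and between -0.19 and 0.13 in the controls. Of these, 27 had both mutant replicates 1 and 3 below all controls, against 25.3% of all genes, again an arrangement singled out after the values were seen. Without mutant replicate 2, 18 were called lower, against 7.91% of all genes. Examples are comr, a regulator of meiotic gene expression in spermatocytes, at -0.60 (limma adjusted p = 0.37), and nht, a testis-specific transcription factor subunit, at -0.65 (limma adjusted p = 0.51). In 6 of the 28 the mean lay in the dimmest 25% of genes. The 8 measured of 9 listed markers of germline stem cells and early germ cells had median deviations of -0.05, -0.16 and -0.02 in the mutants and between -0.09 and 0.15 in the controls, and 0 were called without mutant replicate 2. Their signals were weak, with 4 of the 8 in the dimmest 25% of genes, and single markers went both ways. The 2 with the smallest p were bgcn and ovo. The gene bgcn, needed for germ cell differentiation, was at -0.38 with all mutants below all controls (limma adjusted p = 0.55). The transcription factor gene ovo was at 0.70 (limma adjusted p = 0.57). Whole larvae were measured, so the tissue behind the ovo signal cannot be told. The part of the testis in the paralog values was not tested.

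Each paralog was next set against the canonical subunit it resembles, as the difference of their deviations in the same array; this reading, too, was chosen after the values were seen. Over the 14 pairs the medians were -0.74, -0.46 and -0.55 in mutant replicates 1, 2 and 3, and between -0.12 and 0.10 in the controls. Mutant replicate 2, where most paralogs were near their control level and the canonical subunits high, thus lay on the same side as the other mutant arrays. Rpn12R minus Rpn12 was -1.30, -1.19 and -1.26 in the mutants and between -0.09 and 0.13 in the controls. Rpn13R minus Rpn13 was -0.84, -0.85 and -1.14 in the mutants and between -0.10 and 0.18 in the controls. In these pairs the 3 mutant pools differed little among themselves, compared with the gap to the controls. The SD among mutant pools was 0.06 and 0.17 in them (n = 3 each). Over the 14 pairs it reached 0.42, in Prosbeta5R2 minus Prosbeta5.

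In 7 of the 14 pairs the mutants and controls were apart, with every mutant array on the low side. These were 7 of the 10 pairs with an autosomal counterpart and 0 of the 4 with an X-linked one. No share over all genes was computed for this pairwise scale, so these counts have no background beside them. Because the canonical subunits were high in mutant replicate 2, any gene near its control level there falls low on this scale. The X-linked counterparts themselves were below all controls in mutant replicates 1 and 3 and above them in mutant replicate 2. Prosalpha4T1 minus Prosalpha4 was -0.08, 0.02 and 0.13 in the mutants. Rpt4R minus Rpt4 was -0.04, -0.77 and -0.30. Read against the median of the 23 autosomal subunits instead, 12 of the 14 paralogs were lower in every mutant pool than in any control pool, against 17.5% of all genes and 22 of the 28 testis markers. Prosbeta4R2 and Prosbeta5R2 were the exceptions.

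**Figure D5:**
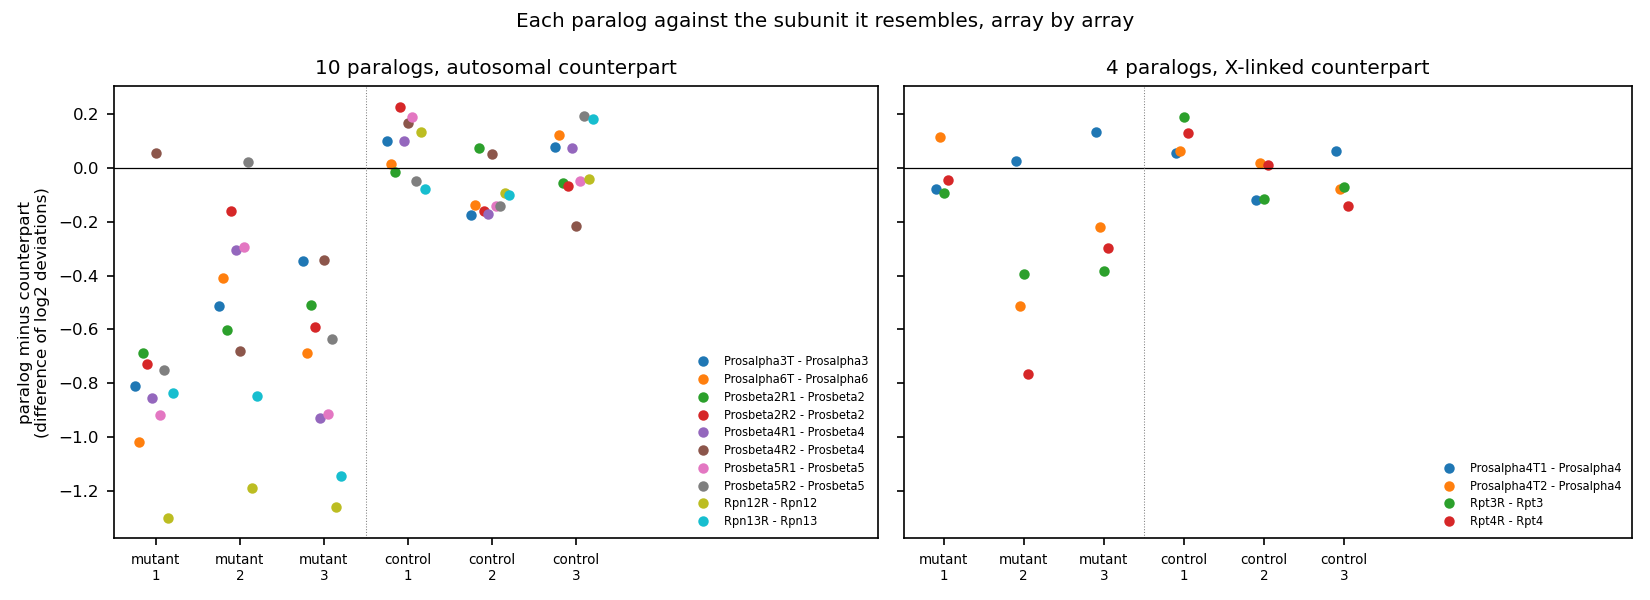
Each point is the deviation of a paralog minus that of the canonical subunit named beside it (log2, vertical axis) in 1 array (horizontal axis). Left, 10 paralogs with an autosomal counterpart, and right, 4 with an X-linked counterpart. Rpn12R stays between -1.30 and -1.19 in all mutant arrays, and pairs with an X-linked counterpart overlap with the controls.

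Most, but not all, of the measured genes that work with the proteasome shared the peak of the canonical subunits in mutant replicate 2. Of a list of 22 ubiquitin genes, shuttle proteins, activators, assembly factors and regulators, 19 were measured, and 0 were called higher or lower by limma over all genes, nor were any at an unadjusted p under 0.05. Their median difference was 0.04, with 11 above 0 and 8 below. In mutant replicate 2, 12 of the 19 had their highest value, against 29.2% of all genes. REG, the X-linked gene of a proteasome activator, had log2 values of 9.97, 9.97 and 9.73 in the mutants and 10.21, 10.17 and 10.15 in the controls. It did not share the high value of mutant replicate 2. All its mutant values lay below all its control values (difference -0.28, SE 0.13, limma adjusted p = 0.61), as in 7.29% of all genes and 18.1% of X-linked genes.

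TER94, the ATPase that extracts ubiquitylated proteins for the proteasome, had log2 values of 11.18, 11.75 and 11.02 in the mutants and 11.01, 10.81 and 10.85 in the controls. All mutant values were above all control values (difference 0.43, SE 0.21, limma adjusted p = 0.61). The same held for its adaptor Npl4, at 0.26 (SE 0.15, limma adjusted p = 0.63). This arrangement was found in 3 of the 19 measured partner genes, against 6.59% of all genes. Uch-L5R, an X-linked copy of the ubiquitin hydrolase gene Uch-L5, was at -0.51 (SE 0.24, limma adjusted p = 0.61), with log2 values of 5.38, 6.13 and 5.76 in the mutants and of up to 6.52 in the controls, and the groups overlapped. Uch-L5 itself, whose product binds to Rpn13, was at 0.13 (SE 0.31). It had log2 values of 8.55, 9.80 and 8.84 in the mutants and 8.90, 8.89 and 9.02 in the controls, and so shared the peak in mutant replicate 2.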

How the data were processed

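Each array was deposited as log2 values of its probe sets, which the authors made with RMA (background correction, normalization between arrays, summarization), per the labels, on Affymetrix Drosophila Genome arrays. Per the submitters' processing notes, GCOS 1.4 was used; the program that ran RMA is not given in the sources used here. RMA makes array distributions alike, so changes are relative. Arrays have no read depth, and their number limits the precision.

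Of 18952 probe sets, 13647 have 1 gene symbol in the platform annotation. For each gene the probe set with the highest mean was kept, which left 11983 genes. Chromosome arms come from the RefSeq table (Release 6 plus ISO1 MT), which held all 40 members. Groups and replicate numbers come from the titles.

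Differences were fitted with limma 3.58.1 in R 4.3.3 (lmFit, eBayes, two-sided, Benjamini-Hochberg over 11983 genes, threshold 0.05), tested on simulated data. Plots used Python 3.11.15 and matplotlib 3.10.9. Values in every array are given for X-linked members, members without overlap between the groups, and the 3 members with the smallest p in each class. Of the partner genes the 4 with the smallest p are named, and of each marker list at most 2. Values of Prosalpha4T1, Prosbeta4R1, Prosbeta4R2, Prosbeta5R2, Rpt2, Rpt5 and Uch-L5 were chosen after they were seen. The members, lists and tests were chosen with earlier results of these data known. Alternatives left out each array, blocked on replicate number, changed the normalization, filter, probe set rule, symbol rule and variance model.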

Additional observations from a re-analysis of the deposited data

How the results depend on the processing

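Over all genes, 0 were called higher and 2 lower. Leaving out 1 array gave 0 to 335 higher and 0 to 948 lower, the upper ends without mutant replicate 2, and 0 to 11 lower members (10 paralogs and Rpt3). Array weights gave 441 higher and 1012 lower, with 9 members lower. Lower genes numbered 0 in the brighter 50% of genes and 1 with an intensity trend. With the replicate number as a block 0 genes were lower. The deviations of same-numbered arrays had r over genes of 0.19, -0.27 and 0.11, and mutant replicate 1 had 0.21 with control replicate 2. With 3 arrays per group these values depend on one another, so they cannot decide whether the numbers pair the pools. The block called 0 members and left 2 lower members at an unadjusted p under 0.05. Across left-out arrays Prosalpha4 ranged from -0.66 to 0.10, Rpt4 from -0.56 to 0.10, Prosbeta5 from -0.0096 to 0.40 and Prosbeta6 from -0.058 to 0.27. Without mutant replicate 2 the core and regulatory medians were -0.11 and -0.02, and without mutant replicate 1 the X-linked median was 0.10, each with its sign turned. Median centring, quantile normalization, means of probe sets and RefSeq symbols changed no count of calls among the members. Limits are the 3 pools per genotype and the weak signal of the paralogs.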

Other observations

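One probe set matches both Prosalpha1, an alpha-ring subunit, and its copy Prosalpha1R, and was therefore in no comparison. The mutant arrays had log2 values of 12.02, 12.86 and 12.21, and the controls 11.92, 12.03 and 12.16. Like the canonical subunits, it was highest in mutant replicate 2, and its groups overlapped (mutant 12.36 ± 0.44 and control 12.04 ± 0.12, SD, n = 3 each).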
